A study of Mus musculus with 4 samples.

Results

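Interferon-stimulated genes, the interferon regulatory factors (IRFs) and the interferon receptors were followed in YAMC cells, a mouse colon epithelial line, with and without medium in which Lactobacillus GG (LGG), a gut bacterium used as a probiotic, had grown. The set held 37 genes. It was read as every probe set that the array's annotation assigns to a single gene of the set. This gave 49 probe sets for 34 genes, of 12394 genes that the table names in this way. Of the remaining 3 genes, Isg15 and Tgtp1 were covered only by a probe set shared with another gene symbol, and no probe set was matched to Ifi44, so no value is given for them. Probe sets entered the test when they had a value on each array and a mean intensity of at least 101, which 38 probe sets for 32 genes did. Mx1 and Mx2 were too dim and were not tested.

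Interferons are secreted alarm proteins of antiviral defence. Type I interferons act through the receptor chains Ifnar1 and Ifnar2 and a complex that holds Stat2 and Irf9, which binds the interferon-stimulated response element (ISRE) in promoters. Interferon gamma acts through Ifngr1 and Ifngr2 and on promoters through the gamma-activated site (GAS), and it is known for the strong induction of Irf1 and of the immunity-related and guanylate-binding GTPases. In the gut epithelium both branches support resistance to viruses and to intracellular microbes.

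The study has 2 groups of 2 arrays. Untreated YAMC cells were compared with YAMC cells kept for 16 h in LGG conditioned medium, with total RNA read on mouse 430A arrays. Each array title carries 1 of 2 dates, called date 1 and date 2 here, and each date holds 1 untreated and 1 LGG array. The sources used here do not say what the dates mark. YAMC cells come from mice that carry a temperature-sensitive SV40 large T antigen under the interferon-inducible promoter of the class I gene H2-K1, and the line is usually expanded with interferon gamma at a permissive temperature. Both groups share this background, and whether interferon gamma was in the medium of these cultures is not stated in the sources used here.

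The labels do not state whether each array had a culture of its own, so p-values measure only the spread between these arrays, which may be technical. With 4 arrays the precision of every value is limited. Among markers of colon epithelium, Krt8, Krt18 and Krt19 were well measured (431 to 1966.8 over all arrays), while Epcam (6 to 9), Vil1 (1.7 to 10.5) and Cdh1 (8.7 to 41.8) were near the bottom of the scale, so that part of the epithelial identity given by the label was not seen. With LGG, Krt18 and Krt19 had log2 changes of 0.66 and -0.72 (limma adjusted p = 0.138 and 0.0693). The fibroblast genes Col1a1 and Vim lay between 6568.6 and 12488.5, and Dcn fell with LGG, from 7734.1 and 8376.2 to 4084.9 and 4473.8 (log2 change -0.91, limma adjusted p = 0.0014). Other markers of the same list were too dim for the test, namely Lum (59.8 to 88.6), Pdgfrb (48.2 to 80.1) and Thy1 (51.4 to 93.7). Of the 4 endothelial markers Kdr alone was bright enough for the test. It rose from 136.2 and 128.9 to 396.5 and 329.2 (1.29, limma adjusted p = 0.00924). The others did not rise with it: Tek read 149.4 and 96.1 without and 36.8 and 51.4 with treatment. Pecam1 read 48 and 34.1 without and 12.1 and 21.3 with treatment, and Cdh5 64.7 and 49.9 without and 41.6 and 50.3 with it. The summed intensity of the 8 fibroblast and mesenchyme markers measured was 32693 and 27852 without treatment and 24440 and 22848 with it, and that of the 10 epithelial markers was 2402 and 3301 without and 3394 and 2903 with treatment; 11 leukocyte markers summed to between 1004 and 1332. Their part in the results below was not tested.

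After LGG conditioned medium 1 of the 32 tested genes of the set rose, the antiviral enzyme gene Rsad2, and 1 fell, the kinase gene Eif2ak2; 30 did not pass (limma, array date fitted as a block, threshold 0.05 after Benjamini-Hochberg adjustment). Over all 6952 genes tested, 6.5% passed in either direction, 3.01% higher and 3.5% lower, so the share in this set, 6.25%, is close to the background. The median log2 change of the set was 0.09, against 0.03 over all genes. At an unadjusted p under 0.05, 11 of the 32 were higher (34.4%, against 10.5% of all genes) and 1 was lower (9.81%), 12 in either direction (20.3% of all genes). Rsad2 and Irf8, among the 11, had untreated means of 72.2 and 75.3 and entered the test only through their LGG arrays, which favours a rise. The same genes are among the higher ones counted next. Both LGG arrays lay above both untreated arrays for 11 of the 32 (26.2% of all genes) and below them for 5 (22.3%). At both dates 14 genes were higher with LGG (35.1% of all genes) and 8 were lower (30.2%). Neither Rsad2 nor Eif2ak2 passed when the date was left out of the fit (adjusted p = 0.105 and 0.182), and without the filter on dim probe sets 0 of 34 genes of the set passed by limma, against 9 at an unadjusted p under 0.05. With 1 array left out the date block leaves no residual degrees of freedom, so those fits dropped the block as well, and a call lost or gained there cannot be put down to the array alone.

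**Figure D1:**
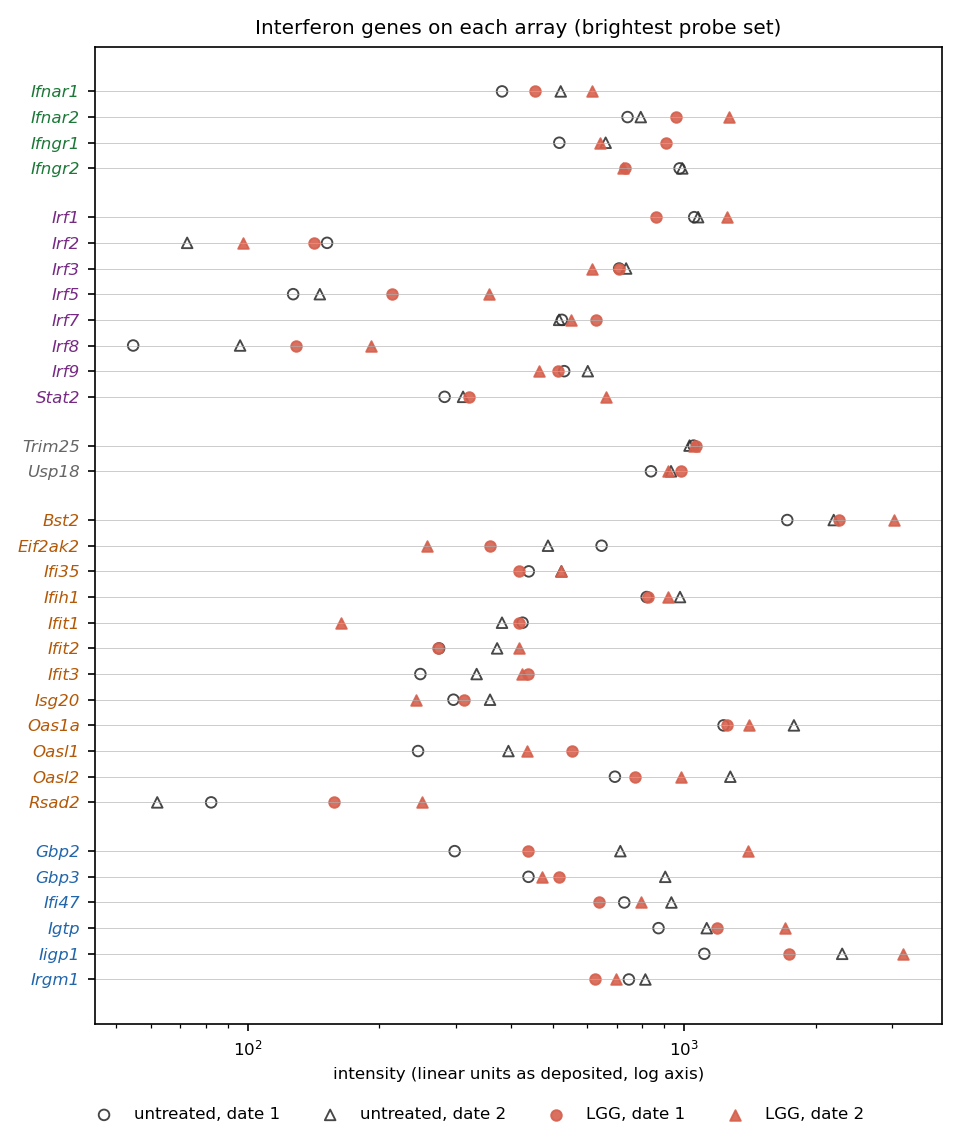
Intensity of the 32 tested genes on each of the 4 arrays, on a log axis, from the brightest probe set of each gene; open symbols are untreated, filled symbols LGG, circles date 1 and triangles date 2, and blocks from top to bottom hold receptors, transcription factors, the ISG15 system, antiviral sensors and effectors, and GTPases. For Rsad2, Irf5 and Irf8 the filled symbols lie to the right of the open ones, for Eif2ak2 to the left, and for Gbp2 and Iigp1 the triangles lie to the right of the circles within each group.

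Promoter letters are given because the pathway acts on these genes through 2 known motifs. RefSeq windows (build GRCm38.p6) of 300 bases, from 250 before to 50 after each start site, were searched on both strands for the core of the ISRE, which is GAAA, any 2 bases and GAAA again, and for the GAS, TTCNNNGAA. The ISRE core was found for 15 of the 33 genes of the set with a window, and for 3.99% of all genes with one. The GAS was found for 13 of 33, and for 9.55% of all genes. The stretches below lie before the start site and are written along the gene's strand, with the ISRE core in capitals, which reads as TTTC, any 2 bases, TTTC where it lies on the opposite strand. They cover Rsad2, which rose, Gbp2, which differed between the dates, and Ifit1, Ifit3 and Igtp, which passed neither test. The coordinates are chr12:26456538-26456597 (minus strand) for Rsad2, chr3:142620579-142620638 (plus) for Gbp2, chr19:34640760-34640838 (plus) for Ifit1, chr19:34583348-34583441 (plus) for Ifit3 and chr11:58199497-58199555 (plus) for Igtp.
Rsad2: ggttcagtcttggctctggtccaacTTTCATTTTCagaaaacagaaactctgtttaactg
Gbp2: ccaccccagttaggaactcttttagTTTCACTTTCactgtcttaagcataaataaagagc
Ifit1: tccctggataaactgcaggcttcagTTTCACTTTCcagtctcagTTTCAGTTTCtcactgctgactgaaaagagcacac
Ifit3: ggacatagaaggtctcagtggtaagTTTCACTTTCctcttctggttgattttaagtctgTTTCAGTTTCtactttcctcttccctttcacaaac
Igtp: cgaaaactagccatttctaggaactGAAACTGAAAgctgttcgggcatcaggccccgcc

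Rsad2, whose promoter stretch is the first of those above, encodes viperin, an enzyme that makes a nucleotide analogue that stops viral RNA synthesis. Its brightest probe set read 82.4 at date 1 and 62 at date 2 without treatment, and 157.5 and 250.4 with LGG. Throughout, the first value of a pair is from date 1. Both LGG arrays lay above both untreated arrays. The mean went from 72.2 ± 14.4 to 204 ± 65.7 (SD over n = 2 arrays). The fitted log2 change was 1.21, with a standard error of 0.30 (limma, adjusted p = 0.029; ± marks the SE of later log2 changes), and the single dates gave 0.76 and 1.66. The untreated mean is below the minimum of 101, so Rsad2 entered the test only through its LGG arrays, and its change on log2(intensity + 25.2) is understated. A dimmer probe set that was not tested read 45.8 and 55.7 without treatment and 155.7 and 107 with it, again with no overlap. With no block and 1 array left out, the call was lost without untreated replicate 1 (adjusted p = 0.529), untreated replicate 2 (0.603) or LGG replicate 2 (0.192), where log2 changes were 1.36, 1.06 and 0.92.

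Eif2ak2 encodes PKR, a kinase that senses double-stranded RNA and halts translation. It read 646.5 and 487.3 without and 358.8 and 257.4 with treatment, so both LGG arrays lay below both untreated arrays. The log2 change was -0.83 ± 0.23 (limma, adjusted p = 0.0497), and the single dates gave -0.81 and -0.86. A second probe set of Eif2ak2 did not show this: it read 337.6 and 416.6 without and 283.3 and 490 with treatment (log2 change -0.01, adjusted p = 0.994). The mean of both probe sets gave a log2 change of -0.42 (adjusted p = 0.234). The call sat at the threshold and was lost in 12 of 13 alternatives, among them another pseudocount, quantile normalization and the fit with no block. With no block and 1 array left out, the log2 change was -0.64 without untreated replicate 1, -1.03 without untreated replicate 2, -0.61 without LGG replicate 2 and, with the call kept, -1.05 without LGG replicate 1.

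The Ifit genes, whose proteins bind foreign RNA, did not move together. Ifit3 read 248.5 and 334.4 without and 438.4 and 424.4 with treatment, a log2 change of 0.54 ± 0.24 (adjusted p = 0.231), with no overlap between the groups. Ifit2 measured 274.3 and 372.6 without and 272.2 and 418.9 with treatment, which overlap almost entirely (0.07, adjusted p = 0.905). Ifit1 was low on a single array: it read 426.1 and 382.3 without treatment, 418.2 with LGG at date 1 and 163.2 with LGG at date 2 (-0.57, adjusted p = 0.275). None of the 3 passed.

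The remaining antiviral genes did not pass either. Oasl1, a member of the oligoadenylate synthetase family that restrains Irf7 translation in the mouse, went from 245.5 to 554.4 at date 1 but from 395.5 to 435.4 at date 2 (log2 change 0.61 ± 0.27, adjusted p = 0.215). Bst2, or tetherin, which holds budding virus at the cell surface, read 1722 and 2200.5 without and 2268.6 and 3029.4 with treatment (0.42 ± 0.17, adjusted p = 0.181), and its groups did not overlap. Oas1a, Oasl2, Isg20, Ifih1 and Ifi35 had log2 changes between -0.23 and -0.03. Ifih1, the cytosolic RNA sensor MDA5, lay between 820 and 977.9 on the 4 arrays with overlapping groups. The dynamin-like antiviral genes Mx1 and Mx2 stayed between 22.5 and 38.7 on every array, under the minimum for the test.

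Among the 8 transcription factor genes 0 passed by limma, and the median log2 change was 0.15. At an unadjusted p under 0.05, 3 were higher (Irf5, Irf8 and Stat2), against 10.5% of all genes. Irf5, best known in macrophages and dendritic cells, measured 127 and 146.2 without and 213.4 and 357.8 with treatment (log2 change 0.90 ± 0.27, adjusted p = 0.0622). Irf8, a lineage factor of myeloid cells that interferon gamma induces, measured 54.6 and 96 without and 129.2 and 191.5 with treatment (0.89 ± 0.28, adjusted p = 0.0766). For both genes the groups did not overlap and the LGG array was at least 1.5-fold higher at both dates; Rsad2 was the only other such gene in the set, 3 of 32 in all, against 3.71% of all genes, and Eif2ak2 the only one at least 1.5-fold lower at both dates, against 3.96%. The Irf8 values are dim, with an untreated mean of 75.3, and so Irf8, like Rsad2, entered the test only through its LGG arrays. A second, dimmer Irf8 probe set read 12.7 and 43.1 without and 52.9 and 147.6 with treatment. Another Irf5 probe set, with values at date 2 only, went the other way, from 224.6 without to 181.5 with treatment.

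Irf5 passed by limma under quantile normalization (adjusted p = 0.0444) and in the fit with 1 value per gene, the mean of its tested probe sets (0.00639). With no block, its log2 change was 1.25 without LGG replicate 1 and 0.56 without LGG replicate 2. Irf8 passed only in the fit with 1 value per gene (0.0257), in which 455 genes rose and 493 fell in place of 209 and 243. Irf5 and Irf8 each have a single tested probe set, so their log2 changes were the same in that fit. Leukocyte markers are given beside these factors because leukocytes express both. Of 12 such markers 11 were measured, and their summed intensity was 1225 and 1004 without and 1259 and 1332 with treatment. Ptprc was near the bottom of the scale on all arrays, Tyrobp lay between 16.3 and 57.4, and Cd68, a lysosomal protein of macrophages, rose from 146 and 101.2 to 274.1 and 289 (log2 change 1.06, limma adjusted p = 0.0314). It was the only one of the 5 tested leukocyte markers to pass: Csf1r, Itgax, Laptm5 and Cd14 had log2 changes of -0.12, -0.18, -0.07 and 0.01. The part of other cells in the Irf5 and Irf8 values was not tested. In bulk RNA more cells of a type and more RNA per cell cannot be told apart.

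Stat2, a partner of Irf9 in type I signalling, stood out on a single array. It measured 282.4 and 311.3 without treatment, 320.5 with LGG at date 1 and 660.5 with LGG at date 2 (log2 change 0.60 ± 0.26, adjusted p = 0.219). A second Stat2 probe set had a log2 change of 0.56, with 149.5 and 242.1 without and 238.7 and 357.4 with treatment, where the groups overlap slightly. With no block and without LGG replicate 1 Stat2 had a log2 change of 1.09 (adjusted p = 0.0376) and without LGG replicate 2 one of 0.10.

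The IRFs that carry the best known interferon signals showed small differences. Irf1, the early factor of the interferon gamma response, measured 1053.9 and 1075.9 without and 860 and 1255.6 with treatment (log2 change -0.03, adjusted p = 0.957), with the LGG arrays on either side of the untreated ones. Irf7, which amplifies type I interferon production, measured 524.4 and 516.8 without and 628.9 and 550.7 with treatment (0.17, adjusted p = 0.739). Irf9 read 530.7 and 601.1 without and 515 and 464.6 with treatment (-0.20, adjusted p = 0.692). Irf3, the factor that starts interferon transcription downstream of nucleic acid sensors, had a log2 change of -0.13 from its brightest probe set and 0.01 from another. Irf2, a repressor of Irf1 targets, was dim and differed more between dates than between groups (151.9 and 72.6 without, 141.7 and 97.5 with treatment).

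None of the 4 receptor genes passed, by limma, and 1 of them, Ifnar2, was higher at an unadjusted p under 0.05, against 10.5% of all genes. Ifnar2, the binding chain of the type I receptor, measured 741.4 and 795 without and 959.7 and 1267.6 with treatment (log2 change 0.51 ± 0.21, adjusted p = 0.193), with no overlap. A dimmer Ifnar2 probe set, not tested, went the other way, from 141.1 and 117.3 to 66.7 and 45.9. Ifngr2, the signalling chain of the interferon gamma receptor, was the most even of the receptors within each group by its brightest probe set. That probe set read 975.8 and 989.5 without and 733 and 722.8 with treatment (-0.42 ± 0.21, adjusted p = 0.285), also with no overlap. A second Ifngr2 probe set had a smaller difference, at 322.5 and 342.9 without and 298.6 and 304.1 with treatment (-0.13, limma adjusted p = 0.818). Ifngr1, the ligand-binding chain, was high on the LGG array of date 1 alone (906.2, against 517.3 to 660.5 on the others), and Ifnar1 had overlapping groups (382.4 and 521.1 without, 455.1 and 614 with treatment).

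In the system of the ubiquitin-like modifier ISG15, Usp18, which removes ISG15 and blocks signalling at Ifnar2, measured 839 and 932.5 without and 981.4 and 917.9 with treatment (log2 change 0.10, adjusted p = 0.85). Trim25, a ligase that activates the sensor RIG-I, lay between 1028.4 and 1062.2 on the 4 arrays by its brightest probe set (0.02, adjusted p = 0.969). Another Trim25 probe set read 355.4 and 403.9 without and 197.8 and 295.7 with treatment (-0.60, adjusted p = 0.189). The 2 tested Trim25 probe sets therefore differed in sign, and of the 6 genes with several tested probe sets Irf3 was the only other one where this happened.

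The 6 tested GTPase genes, whose proteins attack the vacuoles of intracellular microbes, had a median log2 change of 0.15 and none passed by limma. At an unadjusted p under 0.05, 3 of them (Gbp2, Iigp1 and Igtp) were higher, against 10.5% of all genes. Gbp2 measured 297.8 and 713.8 without and 438.1 and 1399.7 with treatment (log2 change 0.73 ± 0.23, adjusted p = 0.0774). Its groups overlap because its date difference was larger than its LGG difference, and the LGG array was the higher one at each date, by log2 ratios of 0.52 and 0.95. Gbp2 passed in the fit with 1 value per gene, the mean of its tested probe sets (limma adjusted p = 0.00772), as did Oasl1. Each has a single tested probe set, so no further probe set entered, and the Gbp2 log2 change was again 0.73. In that setting 455 genes rose and 493 fell in place of 209 and 243. Iigp1 measured 1111.7 and 2301 without and 1736.4 and 3179.7 with treatment (0.55 ± 0.18, adjusted p = 0.0953), and its second probe set had a log2 change of 0.15. Igtp, also called Irgm3, read 873.1 and 1125.9 without and 1190.9 and 1698 with treatment (0.51 ± 0.20, adjusted p = 0.164), with no overlap. Where 1 array was left out, in fits with no block, the log2 change of Gbp2 went from -0.08 (without LGG replicate 2) to 1.54 (without LGG replicate 1), that of Iigp1 from 0.03 (without untreated replicate 1) to 1.06 (without untreated replicate 2) and that of Igtp from 0.26 (without LGG replicate 2) to 0.76 (without LGG replicate 1).

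The other 3 GTPases had fitted log2 changes below 0 and did not pass. Gbp3 was high on the untreated array of date 2 alone, at 904.6 against 439.6 on the untreated array of date 1 and 517.5 and 473.3 on the LGG arrays (log2 change -0.34, adjusted p = 0.537). Irgm1, a regulator of the other immunity-related GTPases, measured 746.7 and 814.6 without and 623.8 and 698.7 with treatment (-0.23, adjusted p = 0.605). Ifi47 read 728.6 and 934.4 without and 637.9 and 797.2 with treatment (-0.20, adjusted p = 0.656).

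**Figure D2:**
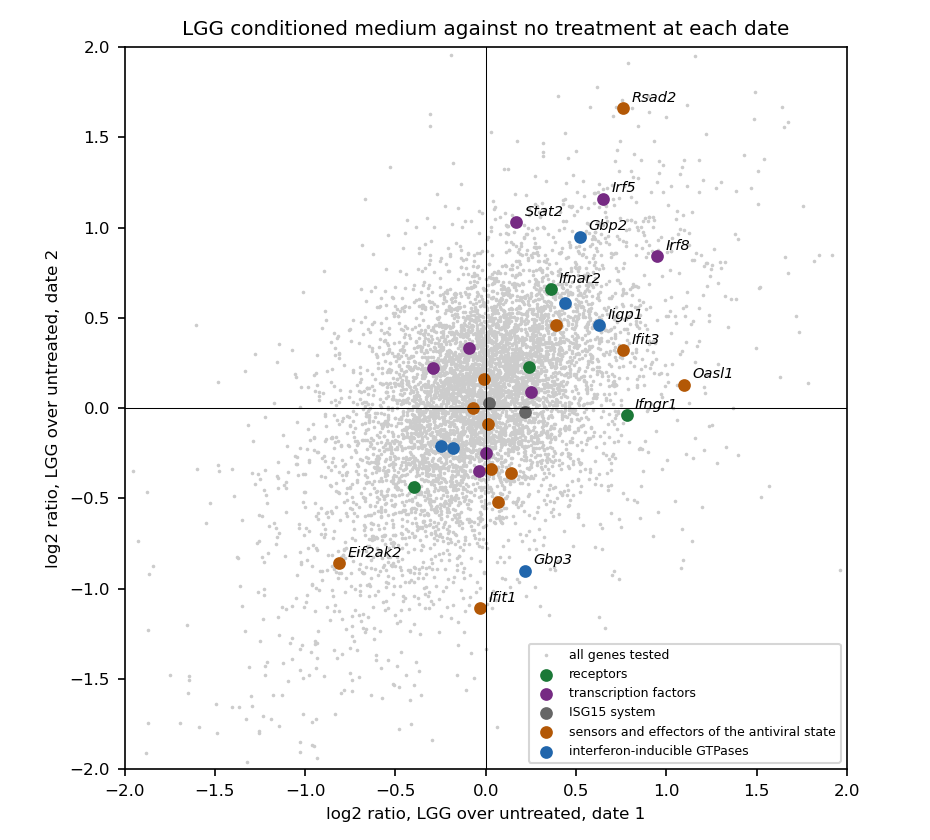
Log2 ratio of LGG over untreated at date 1 (horizontal) and date 2 (vertical) for the tested genes of the set, coloured by role, over all genes tested in grey; 50 genes lie outside the axes, which end at 2. Rsad2, Irf5 and Irf8 lie at the upper right, Eif2ak2 at the lower left, and Gbp3, Ifit1, Oasl1, Ifngr1 and Stat2 differed mainly at 1 date.

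Larger differences at single dates fell on different genes. At date 1, 7 of the 32 genes were at least 1.5-fold higher with LGG (8.43% of all genes) and 1 was at least 1.5-fold lower (8.99%). The 7 were Ifit3, Ifngr1, Iigp1, Irf5, Irf8, Oasl1 and Rsad2. At date 2, 6 were at least 1.5-fold higher (11.8%), namely Gbp2, Ifnar2, Irf5, Irf8, Rsad2 and Stat2, and 3 at least 1.5-fold lower (9.54%), Eif2ak2, Gbp3 and Ifit1. Irf8 and Rsad2, higher at both dates, entered the test only through their LGG arrays. The median log2 ratio of the set was 0.16 at date 1 and 0.06 at date 2, against -0.02 and 0.08 over all genes. Above 0 at date 1 were 21 of the 32, or 25 under quantile normalization and 26 with arrays scaled to a common median. The shares of all genes were 48%, 51.7% and 56.7% in the same order. At date 2 the counts were 17, 17 and 16 of the 32, against 56.8%, 54.3% and 52.6% of all genes. Across the 32 genes the ratios of the 2 dates correlated at 0.60, and across all genes at 0.55, a description over genes that share the same arrays.

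In the absence of treatment most genes of the set were higher at date 2. Comparing the untreated array of date 2 with that of date 1, 26 of the 32 genes were higher at date 2, against 45.7% of all genes, and the median log2 ratio was 0.24, against -0.03 over all genes. This comparison has 1 array per date and no test. The count was 25 under quantile normalization and 28 with arrays scaled to a common median, against 46.9% and 49.9% of all genes. At least 1.5-fold higher at date 2 were 6 genes, Gbp2, Gbp3, Iigp1, Irf8, Oasl1 and Oasl2 (4.11% of all genes), and Irf2 alone was at least 1.5-fold lower (4.62%). Gbp2, Gbp3 and Iigp1 were at least 2-fold higher (0.676% of all genes). The 6 tested GTPase genes were all higher at date 2, under each of the 3 scalings, with a median log2 ratio of 0.68, while the transcription factors had a median of 0.09.

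On the LGG arrays 18 of the 32 genes were higher at date 2, against 54.5% of all genes, and the median log2 ratio was 0.16, against 0.04. Gbp2, Iigp1, Irf5, Rsad2 and Stat2 were at least 1.5-fold higher at date 2 with LGG (9.09% of all genes) and Ifit1 at least 1.5-fold lower (7.59%). Gbp2 and Iigp1 were thus at least 1.5-fold higher at date 2 in both groups, while Gbp3, Oasl1, Oasl2 and Irf8 reached that size only without treatment. Whether the date difference itself differs between the groups was not tested, since each date holds 1 array per group.

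In the fit over all 4 arrays 2 genes of the set differed between the dates, Gbp2 and Iigp1, both higher at date 2 (0.216% of all genes higher, 0.388% in either direction). At an unadjusted p under 0.05, 4 were higher (4.98% of all genes) and Ifit1 and Irf2 were lower (5.21%). Gbp2 went from a mean of 368 at date 1 to 1057 at date 2, a log2 difference of 1.41 ± 0.23 (limma, adjusted p = 0.0187). Iigp1 went from 1424 to 2740 (0.95 ± 0.18, adjusted p = 0.0371), and its second probe set, at 357.2 and 809.9 without and 458.1 and 786.4 with LGG, had a log2 difference of similar size (0.94, adjusted p = 0.114). Oasl2 (693.6 and 1275.2 without, 769.4 and 985.2 with LGG) had a log2 difference of 0.60 and did not pass (adjusted p = 0.328). With any 1 array left out the treatment term had to be dropped too; in these fits of date alone neither gene passed, and log2 differences ranged from 0.93 (without LGG replicate 2) to 1.88 (without untreated replicate 2) for Gbp2 and from 0.63 (without untreated replicate 1) to 1.26 (without LGG replicate 1) for Iigp1. Both calls were also lost with arrays scaled to a common median (adjusted p = 0.066 and 0.143), without an intensity trend (0.0965 and 0.209) and with no filter (0.45 for both).

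**Figure D3:**
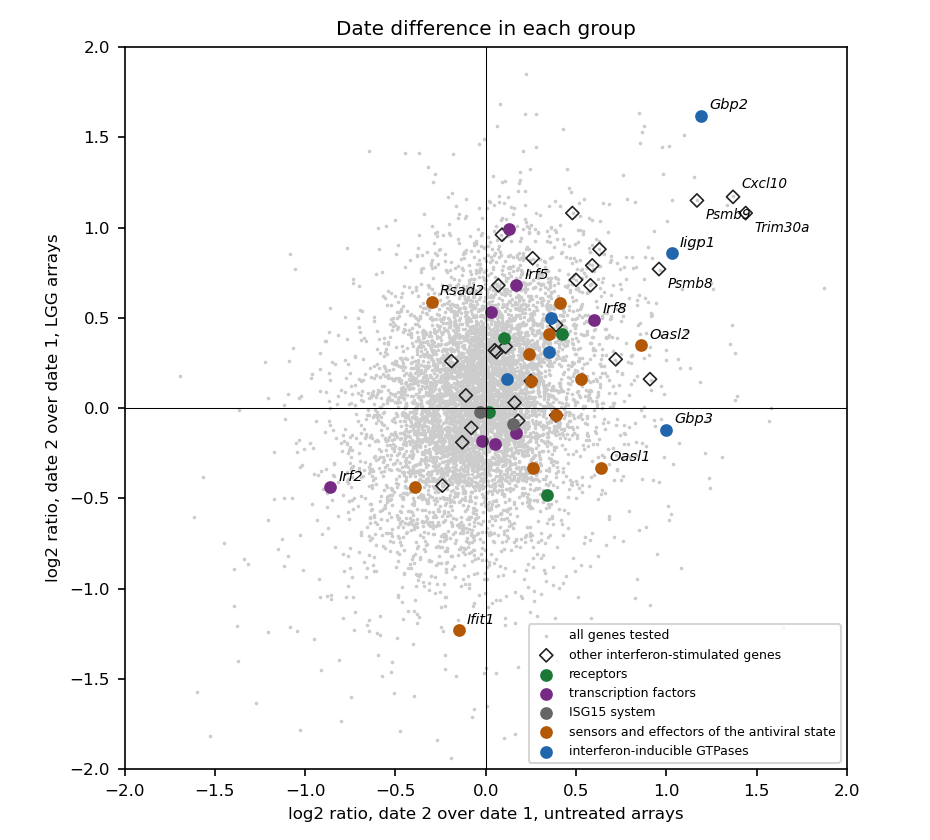
Log2 ratio of date 2 over date 1 on the untreated arrays (horizontal) and on the LGG arrays (vertical), for the set coloured by role, for 27 other interferon-stimulated genes as open diamonds, and for all genes tested in grey; 11 genes lie outside the axes, which end at 2. Gbp2, Iigp1, Cxcl10, Psmb9, Psmb8 and Trim30a lie at the upper right, and Gbp3 and Oasl1 lie to the right only.

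Other genes of the pathway also differed with treatment and between dates. Of 27 further interferon-stimulated genes tested, 3 rose after LGG conditioned medium, Cxcl10, Tap2 and Psmb8, and 1 fell, Irgm2, where 3.01% of all genes rose and 3.5% fell. Cxcl10, a chemokine that draws T cells, measured 711.5 and 1878.4 without and 2074.5 and 4711.8 with treatment (log2 change 1.41, limma adjusted p = 0.000709), and the immunoproteasome gene Psmb8 measured 1060.6 and 2091.5 without and 1812.2 and 3101.2 with it (0.66, adjusted p = 0.0472). Tap2, a chain of the peptide transporter of antigen presentation, measured 318.1 and 504.5 without and 565.2 and 1064 with treatment (log2 change 0.91, limma adjusted p = 0.03). Irgm2, a GTPase of the same family as Igtp and Irgm1, measured 426.5 and 825.9 without and 271.3 and 305 with treatment (-0.99, adjusted p = 0.0348), so that all LGG values lay below all untreated ones. The median log2 change of these 27 was 0.20. Over the whole table, which covers these genes too, no gene passed for treatment by limma with no filter (1525 at an unadjusted p under 0.05), or with no block and without untreated replicate 1 (485) or untreated replicate 2 (533), while no block alone left 24 genes that rose and 37 that fell.

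Between the dates 3 of the 27 were higher at date 2 by limma (0.216% of all genes). These were Trim30a, which went from 333.4 to 948.4 without and from 540.3 to 1166.9 with LGG (log2 difference 1.26, adjusted p = 0.0244), the immunoproteasome gene Psmb9, from 969.8 to 2210.6 without and from 1195.7 to 2687.7 with LGG (1.16, adjusted p = 0.0175), and Cxcl10 (1.27, adjusted p = 0.0081). Cxcl10 thus passed for treatment and for date, while Psmb9 had a log2 change with treatment of 0.29 (adjusted p = 0.428). On the untreated arrays 22 of the 27 were higher at date 2 (45.7% of all genes), and on the LGG arrays 22 as well (54.5%).

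The interferon genes themselves were dim. Ifnb1 lay between 61.2 and 92.1 and Ifng between 10.9 and 35.1 on the 4 arrays. Ifna2 read 121 and 104.8 without and 16.7 and 20 with treatment, with no overlap (log2 ratios of -1.8 and -1.52). Its mean over the 4 arrays was under the minimum and it was not tested. Ifnb1, Ifng, Ifna1 and Ifna11 went the other way, also with no overlap. Ifna1 read 16.6 and 27.6 without and 46.7 and 47.9 with treatment, and Ifna11 45 and 40.6 without and 60.7 and 60.4 with it. Ifna4 and Ifna5 had overlapping groups. Of all genes tested, 26.2% lay higher with LGG with no overlap and 22.3% lower. Of the 7 interferon genes with values on all arrays none reached the minimum for the test. Of 6 tested transducers and inhibitors none passed by limma, with a median log2 change of 0.14. Socs3, a feedback inhibitor of cytokine receptors, measured 509.6 and 459.7 without and 650.8 and 368.5 with treatment (0.02, adjusted p = 0.979). Socs1, the inhibitor of the interferon gamma receptor, was too dim to test but was the higher one at date 2 in each group (26.2 and 60.2 without, 28.3 and 88.6 with treatment). Of 4 tested sensors and adaptors none passed. No value is given for Jak1, for which no probe set of a single symbol had values on all arrays.

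Genes with and without the ISRE core overlapped in their response. Of the tested genes with a window, 13 had a match and a median log2 change with LGG of 0.12, with 7 of 13 above 0, and 17 had none and a median of 0.02, with 9 of 17 above 0. Between the untreated arrays the median log2 ratio of date 2 over date 1 was 0.25 with and 0.24 without a match. The Ifit1 and Ifit3 stretches each hold the core at 2 places, and these genes had log2 changes of -0.57 and 0.54. Neither motif was found in the windows of Irf5 and Oasl1, while Irf8 held the GAS at 2 places and no ISRE core. In Bst2 a GAS match overlaps an ISRE core, and in Bst2, Gbp3, Irgm1, Isg15 and Oas1a neighbouring ISRE cores overlap. A match is a description of the letters and not evidence of binding.

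**Figure D4:**
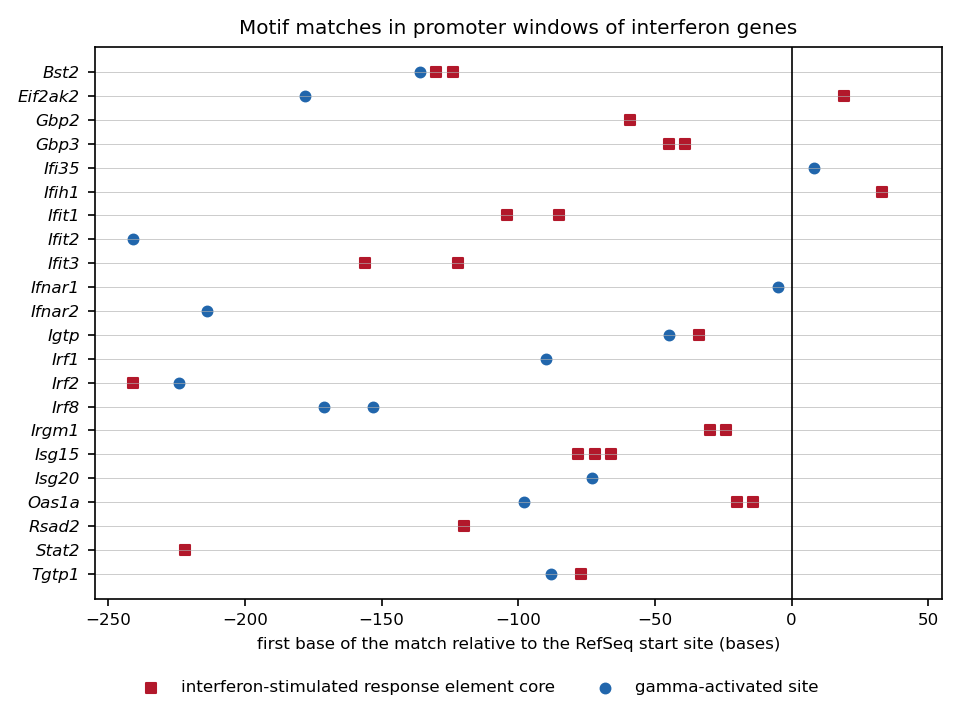
Position of the first base of each ISRE core (squares) and GAS (circles) relative to the RefSeq start site, for the genes of the set with at least 1 match in the window from 250 bases before to 50 after it. The squares of Irf2 and Stat2 lie farthest before the start site, at -241 and -222, and those of Eif2ak2 and Ifih1 lie after it.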

How the data were processed

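Values for the 4 mouse 430A arrays came from 1 table that the authors deposited, as linear intensity; software, scaling and filters are not given in the sources used here. Trimmed means (2% at each end) were 500.1 to 513.5, and 6307 of 22690 probe sets had no value on both arrays of date 1; of the set, 6 such probe sets were read at date 2 only. Values were taken as log2(intensity + 25.2), where 25.2 is 5% of the arrays' trimmed means (geometric mean), a scale that understates the change of dim genes. The 10333 probe sets with values on all arrays and a mean of at least 101 (20% of it) were fitted with limma 3.58.1 in R 4.3.3: terms for treatment and array date, an intensity trend in eBayes, Benjamini-Hochberg adjustment over all of them. The fit has 1 residual and 12.5 prior degrees of freedom, so SE and p rest mostly on variance shared across genes. The dates in the titles pair the arrays, and across all genes the date differences of the 2 groups correlated at 0.29. The fit was tested on simulated data.

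A gene was represented by its brightest tested probe set, named from the platform annotation. By rule, array values were given for genes that passed, that were at least 1.5-fold changed at both dates or 2-fold different between untreated arrays, for receptors and transcription factors, and, outside the set, for pathway genes that passed and Jak1, Socs1, Socs3 and Cxcl10. Values of other genes were added after they were seen. The set and all lists were chosen with earlier results of these data known. Alternatives covered the block, pseudocount, filter, scaling, trend, probe set choice and each array left out. Figures used matplotlib 3.10.9.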

Additional observations from a re-analysis of the deposited data

Results flagged for a closer look

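The 6 probe sets of the set with no value at date 1 were outside the comparison of the groups. Their values at date 2 are given here with no filter on dim probe sets. A Gbp2 probe set measured 538 without and 1139.5 with treatment, a log2 ratio of 1.05. Another Rsad2 probe set measured 232.4 and 408.1, a log2 ratio of 0.75. An Irf5 probe set went the other way, from 224.6 without to 181.5 with treatment (-0.27), where its tested probe set had 1.16 at date 2. The Irf3 probe sets had log2 ratios of 0.5 and -0.57, and the Trim25 probe set 0.21. The share of all probe sets read at date 2 only that differed by as much as those of Gbp2 and Rsad2 was not counted, so these values are a description only. Each log2 ratio rests on 1 array per group and has no test.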

How the results depend on the processing

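With LGG treatment 2 genes of the set passed. No replicate block, no filter and a filter at 50% of the trimmed mean left 0. A pseudocount of 1, a pseudocount of 20% of the trimmed mean, median scaling and no trend left 1, and the mean of probe sets gave 5. With 1 array left out the fits also had to drop the block and assumed that the lone array varies like the others. Their counts cannot be set beside these. Quantile normalization gave 2, Rsad2 and Irf5. The Gbp2 change had the opposite sign without LGG replicate 2 (-0.08). Rsad2 was under the minimum of the stricter filter and was not tested there. Between dates 2 passed; no filter, median scaling, no trend, and each array left out together with the treatment term, left 0, and quantile normalization and the filter at 50% left 1. For settings that move a count, the cause was not tested. Over all genes tested, 209 rose and 243 fell where the replicate block was fitted, against 24 and 37 with no block. With no filter no gene of the whole table rose or fell by limma. A pseudocount of 1 left 187 and 227, and the larger one 197 and 234. The filter at 50% left 152 and 188, median scaling 152 and 152, no trend 115 and 129, and quantile normalization 195 and 212. The mean of probe sets gave 455 and 493, so more calls in that fit were not particular to the set. Precision is limited by the 4 arrays, and by low signal for Rsad2 and Irf8.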
